A study of Mus musculus with 60 samples.

Results

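The CDK inhibitor genes are 6 genes, *Cdkn1a*, *Cdkn1b*, *Cdkn2a*, *Cdkn2b*, *Cdkn2c* and *Cdkn2d*, and the data below are the histone modification peaks that carry their symbols. Across the 12 peak lists, 39 of 256375 peaks were assigned to these 6 genes, out of 16994 gene symbols with a peak. In CUT&RUN-seq a nuclease tethered to an antibody frees the DNA around its target, and here it mapped H4K8ac, an acetylation of active chromatin, and H3K27me3, the methylation laid down by Polycomb repressive complexes. The nuclei came from the hippocampus of Emx1-NuTRAP mice, in which Emx1-Cre switches on nuclear and ribosomal tags mainly in excitatory neurons and their progenitors, with Cre active from development on. All groups carried this genotype, and per the methods only male mice were used. Exercised mice (early-life exercise, ELE) ran on a wheel in the cage between postnatal days 21 and 41, and sedentary mice had none. Both hippocampi were used for nuclei and RNA at once (SIT, simultaneous isolation), or 1 hemisphere was used for nuclei only, either the left one (left separate) or the right one (right separate), and these 3 isolations are called arms.

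Each list holds the peaks of 1 mark, condition and arm, with positions and an assigned gene but neither a signal nor the sample a peak came from. By the labels a group has 4 samples in SIT and 3 in a separate isolation, but a list counts as 1 unit with unknown depth and no replicate error. The study left out exercised H4K8ac samples of SIT and of the separate isolations for a high false discovery rate, and also animals of both conditions on their RNA data. For its SIT peak calls the study gives fewer mice in either condition than the labels have samples, so the label counts are an upper limit on the samples behind a list. Lists differed in length, from 12168 to 38136 peaks for H4K8ac and from 9899 to 25693 for H3K27me3. Peaks for 4 to 8 of 10 neuron markers were present in each H4K8ac list, with *Camk2a*, *Eno2*, *Neurod2* and *Snap25* in all 6 and *Grin1* in none, and *Thy1* was the neuron marker with an H3K27me3 peak, in all 6 lists. Of 8 glia and vessel markers, 3 to 5 also had an H4K8ac peak, with *Mbp*, *Aqp4* and *Pecam1* in all 6 lists, whereas 3 or 4 of them, with *Olig2*, *Aqp4* and *Aldh1l1* in every list, had an H3K27me3 peak. Of 5 interneuron markers, 2 to 4 had an H3K27me3 peak and 1 or 2 an H4K8ac peak, with *Dlx2* in all 6 H4K8ac lists. A start site under H3K27me3 was found for 3 to 5 of them. The part of other cells in the results was not tested.

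CDK inhibitors bind cyclin-dependent kinases and stop the cell from entering or passing through the division cycle. The INK4 group (p16Ink4a from *Cdkn2a*, p15Ink4b from *Cdkn2b*, p18Ink4c from *Cdkn2c* and p19Ink4d from *Cdkn2d*) blocks the D-cyclin kinases, and the CIP/KIP group (p21Cip1 from *Cdkn1a* and p27Kip1 from *Cdkn1b*) acts on cyclin and kinase complexes more widely. *Cdkn2a* also encodes p19Arf, a stabiliser of p53, from a start site of its own. The stretch with *Cdkn2a* and *Cdkn2b* is a classical Polycomb target that loses H3K27me3 in senescent cells, and *Cdkn1b* is a long-known brake of neuronal precursors that stays expressed in many postmitotic neurons.

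The start sites under H3K27me3 in all 6 lists and that of *Cdkn1b*, which had an H4K8ac peak in most lists, are shown by the bases just upstream of them, from RefSeq on GRCm38 (the build called mm10 in the files), read 5′ to 3′ on the minus strand for *Cdkn2a* and *Cdkn2b* and on the plus strand for *Cdkn1b*. They are the p19Arf and p16Ink4a starts of *Cdkn2a* (chr4:89294654-89294869 and chr4:89282193-89282442), the *Cdkn2b* start (chr4:89311040-89311282) and the *Cdkn1b* start (chr6:134920151-134920400). Capitals mark CG dinucleotides, a motif that reads the same on both strands and cannot overlap itself.
Cdkn2a p19Arf start: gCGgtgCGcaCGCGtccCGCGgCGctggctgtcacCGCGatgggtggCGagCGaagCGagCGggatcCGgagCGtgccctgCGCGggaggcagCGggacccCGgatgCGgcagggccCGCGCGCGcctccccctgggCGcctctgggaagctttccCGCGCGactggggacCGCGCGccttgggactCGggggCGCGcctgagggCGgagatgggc
Cdkn2a p16Ink4a start: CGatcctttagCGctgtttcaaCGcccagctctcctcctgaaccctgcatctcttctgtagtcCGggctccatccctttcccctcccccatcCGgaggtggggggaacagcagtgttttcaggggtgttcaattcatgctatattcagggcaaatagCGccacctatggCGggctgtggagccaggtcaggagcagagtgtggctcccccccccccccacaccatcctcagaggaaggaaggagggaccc
Cdkn2b start: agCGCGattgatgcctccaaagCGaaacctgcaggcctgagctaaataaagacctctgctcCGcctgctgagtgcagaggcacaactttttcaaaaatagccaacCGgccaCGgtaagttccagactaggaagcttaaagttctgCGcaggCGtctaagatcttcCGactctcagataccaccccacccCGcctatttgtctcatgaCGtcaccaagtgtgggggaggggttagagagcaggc
Cdkn1b start: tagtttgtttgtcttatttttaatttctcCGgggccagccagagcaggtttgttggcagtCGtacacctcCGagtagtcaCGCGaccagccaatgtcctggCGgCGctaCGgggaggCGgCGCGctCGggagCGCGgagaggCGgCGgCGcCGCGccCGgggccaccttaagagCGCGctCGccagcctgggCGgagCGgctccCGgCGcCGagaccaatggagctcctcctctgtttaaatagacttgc
The first 3 starts lay under H3K27me3 in 6 of 6 lists and under H4K8ac in 0, and the *Cdkn1b* start lay under H4K8ac in 2 of 6 lists and under H3K27me3 in 0. The printed stretches hold 35 CG for p19Arf, 7 for p16Ink4a, 11 for *Cdkn2b* and 28 for *Cdkn1b*. CG were compared with other promoters in the 250 bases before each RefSeq start, which for p19Arf and *Cdkn2b* lies downstream of the GENCODE start, so that these windows run past the printed 216 and 243 bases. In that window the p19Arf start had 40 CG, a count that 1.31% of 32851 RefSeq promoters reached, and the *Cdkn1b* start had 28, which 7.61% reached. The *Cdkn2b* start had 12 (33.5% of promoters) and the p16Ink4a start 7 (46.3%), beside a median of 6 over all promoters. The H3K27me3-covered starts thus ranged from near the median to the top of the distribution in CG content. The *Cdkn1b* start, under H4K8ac in 2 of 6 lists, lay between them.

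Genes with at least 1 assigned peak, called listed, were counted for each mark. Of the 6 genes, *Cdkn2a*, *Cdkn2b* and *Cdkn2c* were listed for H3K27me3 alone and *Cdkn2d* for H4K8ac alone, while *Cdkn1a* and *Cdkn1b* were listed for both marks, in 3 of 36 cases in the same condition and arm. H3K27me3 gave 30 of the 39 peaks, in 18 of 36 pairs of a gene and a list, and H4K8ac gave 9 peaks in 9 of 36 pairs. All 9 H4K8ac peaks lay within 1 kb of a start site by their annotation, as did 11 of the 30 H3K27me3 peaks. *Cdkn2a* and *Cdkn2c* had an H3K27me3 peak in 6 of 6 lists and an H4K8ac peak in 0. *Cdkn1b* had an H4K8ac peak in 5 of 6 lists and an H3K27me3 peak in 2, and *Cdkn1a* had each mark in 3 of 6. *Cdkn2b* was listed once, for H3K27me3 in the exercised right separate list, and *Cdkn2d* once, for H4K8ac in the exercised SIT list.

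**Figure D1:**
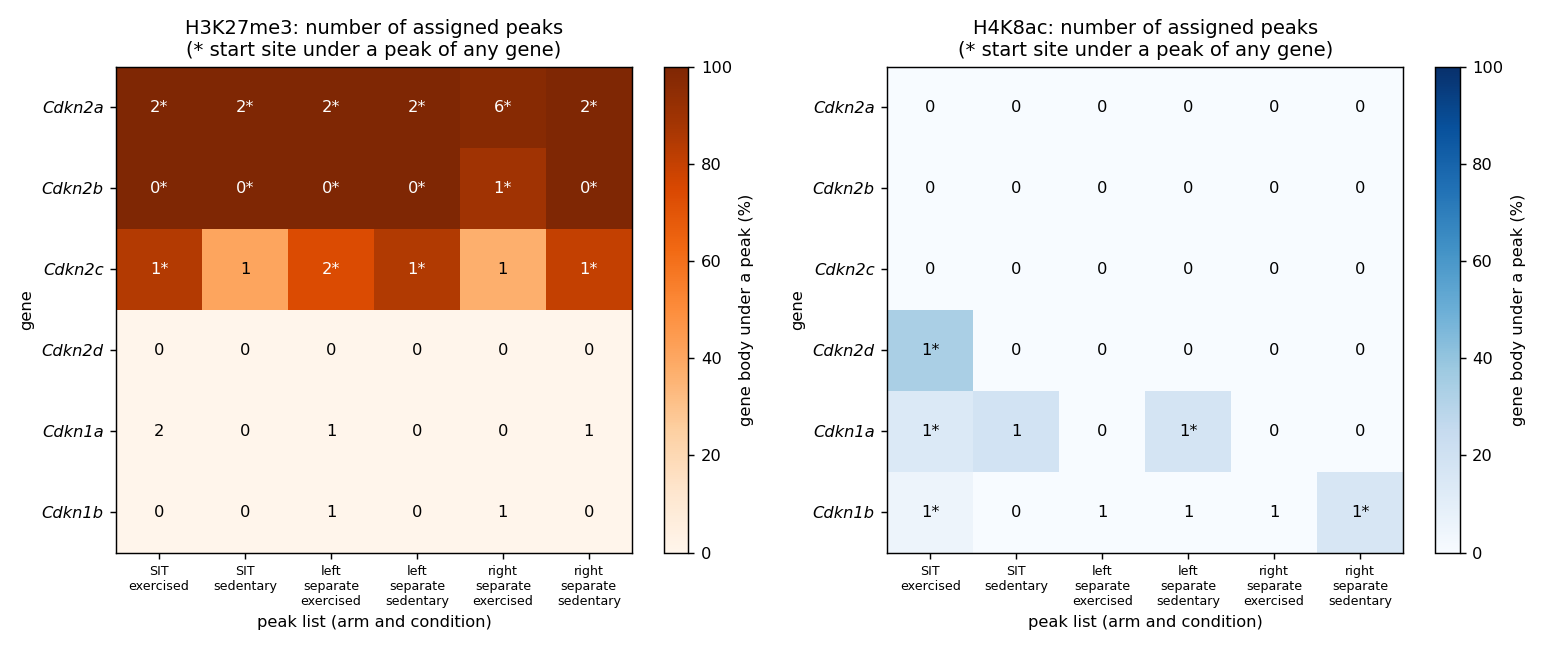
Each cell is 1 gene (rows) in 1 peak list (columns, by arm and condition), with the number of assigned peaks written in it, an asterisk where a start site of the gene lies under a peak of any assigned gene, and colour for the percentage of the gene body under a peak. *Cdkn2a* and *Cdkn2b* are 89.4 to 100% covered by H3K27me3 in all 6 lists, although *Cdkn2b* has an assigned peak in 1 of them.

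Against all genes, the H3K27me3 lists held 2 to 4 of the 6 CDK inhibitor genes. In the SIT arm 3 were listed in exercised and 2 in sedentary mice, beside 24.6 and 14.5% of 21911 protein-coding symbols. In the left separate arm 4 and 2 were listed, beside 19.8 and 17.7%, and in the right separate arm 4 and 3, beside 13.3 and 23.0%. The H4K8ac lists held 1 to 3 of the 6. In SIT these were 3 in exercised and 1 in sedentary mice, beside 41.2 and 32.8% of all protein-coding symbols. In left separate they were 1 and 2, beside 19.6 and 39.4%, and in right separate 1 and 1, beside 22.1 and 31.6%. With 6 genes, 1 gene is 1 of 6, so that single lists cannot be read finely against these shares.

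*Cdkn2a* (ENSMUSG00000044303, chr4:89274471-89294653, minus strand) and its neighbour *Cdkn2b* (ENSMUSG00000073802, chr4:89306299-89311039, minus strand) lay inside 1 H3K27me3 domain in every list. In exercised SIT the main peak was 51933 bp wide (chr4:89264868-89316800) and in sedentary SIT 51729 bp (chr4:89265071-89316799). In exercised left separate it was 52058 bp (chr4:89264738-89316795) and in sedentary left separate 54623 bp (chr4:89262165-89316787). In sedentary right separate a single peak of 65308 bp ran over the whole stretch (chr4:89250518-89315825). This list alone had a further *Cdkn2a* peak of 3507 bp (chr4:89234413-89237919), apart from the domain and farther past the 3′ end. The 5 main peaks each held both *Cdkn2a* start sites and the *Cdkn2b* start site. The rule that gives a peak 1 gene placed all 5 under *Cdkn2a*. In exercised right separate the same stretch was split into 7 peaks, of which the widest had 27531 bp, 6 were assigned to *Cdkn2a* and the last, 6503 bp wide (chr4:89309710-89316212), to *Cdkn2b*. Gaps of 604 bp in *Cdkn2a* and 501 bp in *Cdkn2b* lay inside the gene bodies, and all 3 start sites were still covered.

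Joined across gaps of up to 3 kb, a limit chosen after the positions were seen, the domain kept nearly the same edges in all 6 lists. Its span was 63860 to 66312 bp. The edge upstream of *Cdkn2b* lay 4786 to 5761 bp before the *Cdkn2b* start site, a range of 975 bp, and in 4 of the 6 lists within 5748 to 5761 bp. The other edge lay 22102 to 23982 bp past the 3′ end of *Cdkn2a*, inside the non-coding gene *Gm12606*, a range of 1880 bp. Peaks covered 99.3 and 96.9% of the span in exercised and sedentary SIT, 98.5 and 97.4% in left separate, and 89.3 and 100% in right separate. With gaps of up to 1 kb alone, the domain was shorter in 3 lists, while the other 3 did not change. It then ended 9400 bp past *Cdkn2a* in sedentary SIT, 12306 bp past it in sedentary left separate and 1155 bp past it in exercised right separate, and spanned 51729, 54623 and 42897 bp. Within the edges common to all lists (63457 bp), 85.0% of bases were covered in all 6 lists and 97.8% in at least 5. A stretch of 312 bp (chr4:89264426-89264737) in an intron of *Gm12606*, 9734 bp past the end of *Cdkn2a*, was covered in 2 lists and open in 4.

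**Figure D2:**
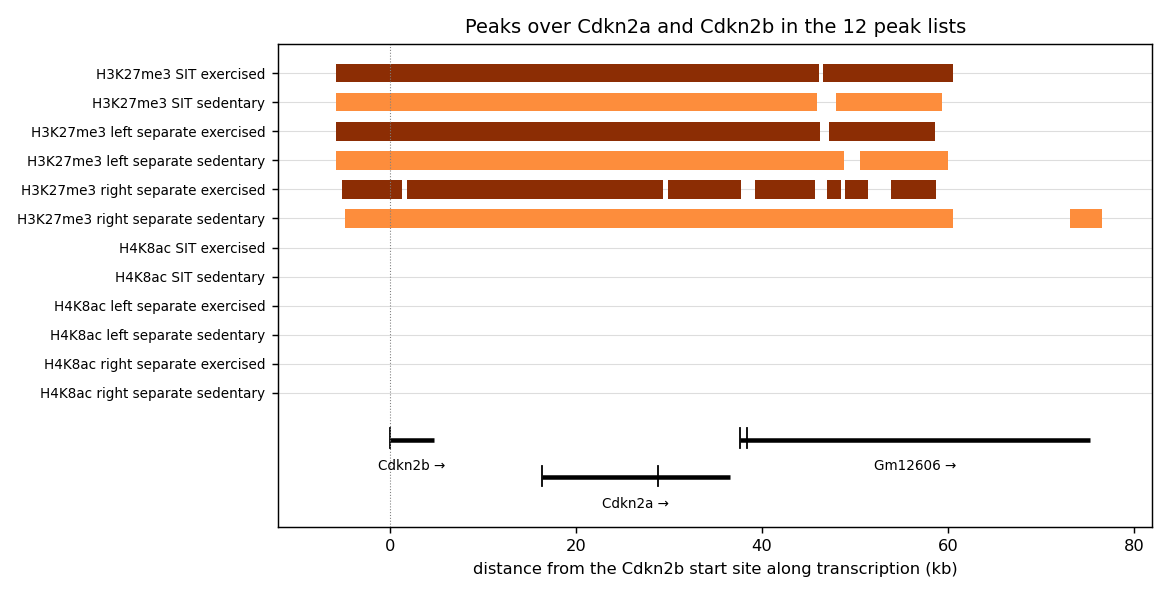
Bars are peaks in the 12 lists (rows) along the distance in kb from the *Cdkn2b* start site in the direction of transcription, dark for exercised and light for sedentary, with genes drawn below, start sites as ticks and arrows for direction. The H3K27me3 bars begin 4786 to 5761 bp before the *Cdkn2b* start site in all 6 lists and the 6 H4K8ac rows are empty.

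Among the peaks of their lists these were wide ones. The widest peak of the domain ranked 114 of 25693 by width in exercised SIT and 56 of 10279 in sedentary SIT. It ranked 48 of 18262 and 23 of 14491 in exercised and sedentary left separate, and 57 of 9899 and 52 of 21790 in right separate, where the exercised one was a piece of a split domain. The median width over a list was 2861 to 4375 bp. The domain took 0.0486% of all H3K27me3-covered bases in exercised SIT, the list that covered most (135.6 Mb), and 0.138% in exercised right separate, the list that covered least (41.2 Mb), so its own size moved far less between lists than the lists did. Over all 21938 protein-coding genes, 159, or 0.725%, had a body covered in every H3K27me3 list to at least the 97.0% that was the lowest value of *Cdkn2a*. Among the 10102 genes at least as long as *Cdkn2a* (20183 bp), 7 did, *Cdkn2a* included. For *Cdkn2b*, whose lowest value was 89.4%, 193 genes, or 0.88%, reached as much.

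No H4K8ac peak overlapped the domain in any of the 6 lists. The nearest lay 68681 bp away in sedentary right separate and 69399 bp away in exercised SIT, both assigned to *Gm12609*, and 310737 bp or farther in the other 4 lists. Since the depth is unknown, an absent peak says only that none passed the caller's threshold.

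*Cdkn2c* (ENSMUSG00000028551, chr4:109660876-109667189, minus strand) carried H3K27me3 over its 3′ part and the sequence past it in all 6 lists. Covered bases within 10 kb of the gene were 13304 in exercised and 9421 in sedentary SIT, 11671 and 12473 in left separate, and 6994 and 11013 in right separate. Exercised was the larger in SIT and the smaller in both separate arms, so the conditions did not separate. The marked stretch began 4653 to 7991 bp past the 3′ end and covered 37.1 to 84.5% of the gene body. Its upstream edge passed the inner start site, at 109665372, by 358 to 838 bp in 4 lists, both left separate lists, exercised SIT and sedentary right separate, and stopped 1923 and 2156 bp short of it in sedentary SIT and exercised right separate. The outer start site, at 109667189, lay under H3K27me3 in 0 of 6 lists, since the edge stopped 979 to 3973 bp before it. *Cdkn2c* thus differed from its relatives *Cdkn2a* and *Cdkn2b*, whose start sites were covered in every list. No H4K8ac peak was assigned to *Cdkn2c*. The nearest ones, of 1118 bp in sedentary SIT and 832 bp in sedentary left separate, lay at the promoter of *Faf1* on the other side.

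*Cdkn1b* (ENSMUSG00000003031, chr6:134920401-134925513, plus strand), the gene of p27Kip1, had 1 H4K8ac peak at its promoter in each of 5 lists. The peak was 1342 bp wide in exercised SIT and absent in sedentary SIT. It was 1679 and 1500 bp wide in exercised and sedentary left separate, and 1253 and 2080 bp in right separate. The peaks spanned from 1957 bp before to 832 bp after the start site and shared 805 bp, from 1083 to 279 bp upstream, so the bases common to all 5 lay in front of the gene. The start site itself was covered in exercised SIT and sedentary right separate. Exercised and sedentary peaks overlapped by 1254 bp in left separate and 1191 bp in right separate. In the share of bases covered in both conditions among those covered in either (the Jaccard index), the *Cdkn1b* locus, taken with 10 kb on each side, reached 0.651 and 0.556 in left and right separate, and 4.78 and 11.8% of all protein-coding genes with H4K8ac nearby reached as much. In SIT the index was 0, since the sedentary list held no H4K8ac peak at the locus.

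H3K27me3 at *Cdkn1b* was seen in exercised lists alone. A peak of 1956 bp lay 4617 to 2662 bp upstream of the start site in exercised left separate, and one of 1347 bp, 4135 to 2789 bp upstream, in exercised right separate. Exercised SIT and the 3 sedentary lists had no covered base within 10 kb of the gene. Both peaks were among the narrow ones of their lists, in which 89.0 and 95.8% of peaks were at least as wide. In these lists both marks stood side by side at *Cdkn1b*, with 704 bp between the H3K27me3 and the H4K8ac peak in left separate and 1479 bp in right separate, and did not overlap.

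*Cdkn1a* (ENSMUSG00000023067, chr17:29090976-29100727, plus strand), the gene of p21Cip1 and a main target of p53, had H4K8ac not at its outermost start site but at an inner pair of start sites, the first of them 2793 bp further in. The peak reached from 304 bp before to 1039 bp after that site in exercised SIT, and from 579 bp before to 1151 bp after it in sedentary left separate. In sedentary SIT it began 941 bp after that start and ended 2760 bp after it, so that exercised and sedentary SIT, although both listed, had 99 bp in common. The other 3 lists had none. H3K27me3 peaks of *Cdkn1a* lay past the gene, in sequence annotated as distal intergenic, and were narrow. Exercised SIT had 2, of 1108 and 1505 bp, exercised left separate had 1 of 1334 bp and sedentary right separate 1 of 1204 bp. A wider peak of 2127 to 3248 bp, assigned to *Rab44*, followed on the far side in 5 of 6 lists, all but exercised right separate. Where both were present, 347 to 882 bp lay between them. No H3K27me3 peak touched the *Cdkn1a* gene body in any list.

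*Cdkn2d* (ENSMUSG00000096472, chr9:21288410-21291407, minus strand), the gene of p19Ink4d, had 1 peak in all, of H4K8ac in exercised SIT. It was 1515 bp wide, ran from 509 bp before to 1005 bp after the outermost start site and covered its 3 start sites. A peak at the promoter of its neighbour *Kri1* was listed beside it. The gene and 10 kb on each side had no H3K27me3 in 6 of 6 lists, unlike the other 3 INK4 genes.

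**Figure D3:**
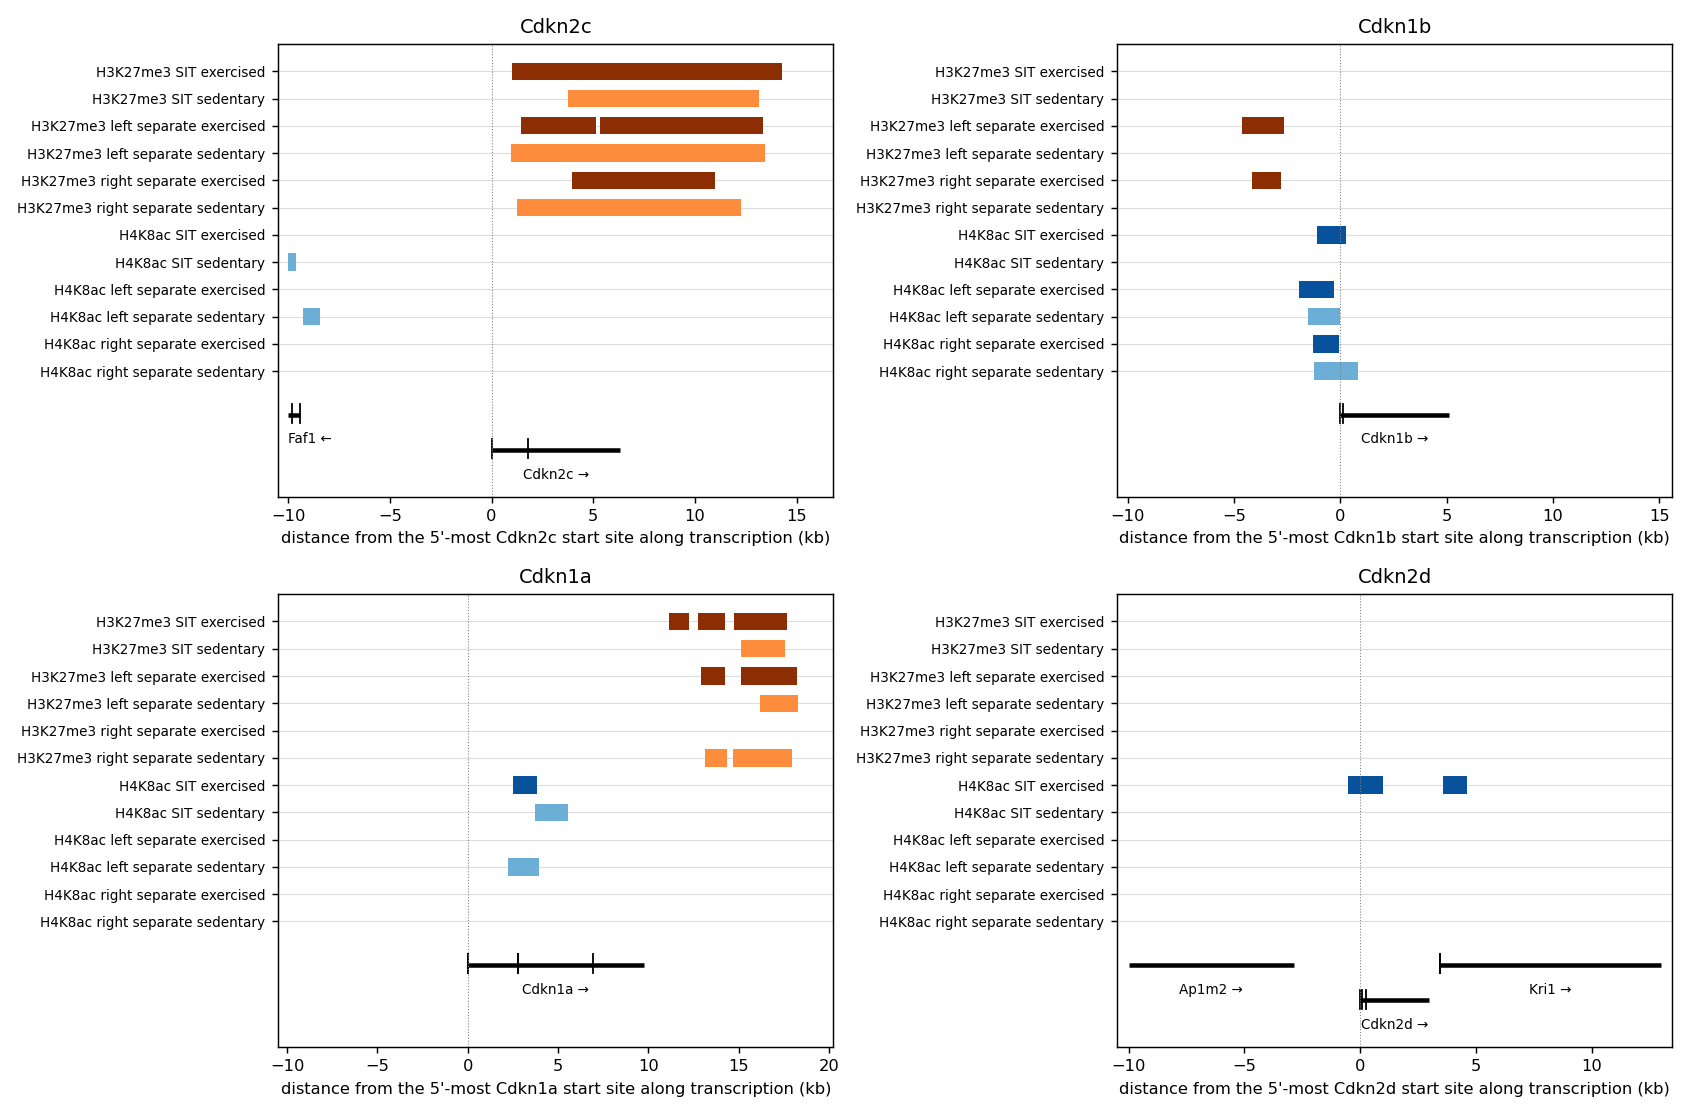
Peaks in the 12 lists (rows) around *Cdkn2c*, *Cdkn1b*, *Cdkn1a* and *Cdkn2d*, along the distance in kb from each gene's outermost start site in the direction of transcription, orange and brown for H3K27me3, blue for H4K8ac, dark for exercised and light for sedentary. H3K27me3 covers the 3′ side of *Cdkn2c* in 6 lists, lies 2662 bp or more upstream of *Cdkn1b* in 2 exercised lists and past the end of *Cdkn1a*, and is absent at *Cdkn2d*.

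The comparison of exercised with sedentary mice asks whether ELE adds or removes either mark at these genes. A gene was called gained where the exercised list alone held a peak of it, and lost where the sedentary list alone did. For H4K8ac, *Cdkn1b* and *Cdkn2d* were gained in SIT, where 27.5% of 11952 listed genes were gained and 10.1% lost. *Cdkn1a* was lost in left separate, where 3.58% of 10600 were gained and 51.9% lost. The exercised H4K8ac list held 12168 peaks there and the sedentary list 36425, and the part of the samples left out was not tested. No CDK inhibitor gene was gained or lost in right separate, where 9.14% of 9156 were gained and 36.7% lost. Each of these calls went the way of most changed genes in its arm. None of the 6 CDK inhibitor genes was gained or lost for H4K8ac in more than 1 arm by assigned peaks. With the widest 50% of peaks, *Cdkn1a* was lost in SIT and left separate and *Cdkn1b* in both separate arms. With peaks over start sites, both were gained in SIT, and *Cdkn1a* was lost in left and *Cdkn1b* in right separate.

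For H3K27me3, *Cdkn1a* was gained in SIT, where 41.4% of 6539 listed genes were gained and 1.02% lost. *Cdkn1a* and *Cdkn1b* were gained in left separate, where 18.5% of 5728 were gained and 9.13% lost. In right separate *Cdkn1b* and *Cdkn2b* were gained and *Cdkn1a* was lost, where 3.12% of 6212 were gained and 43.6% lost. The gains of right separate thus went against the direction of most changed genes there. That of *Cdkn2b* stood only in the assignment, since its start site and 89.4% of its body were covered in exercised and 100% in sedentary right separate. Of the genes gained, 22 were gained in both separate arms, 2.08% of those of left separate and 11.3% of those of right separate, and *Cdkn1b* was the CDK inhibitor gene among them. Both peaks of this *Cdkn1b* gain were annotated as promoter at 2 to 3 kb. Promoter peaks alone and distal peaks left out thus kept it by definition. With any peak within 3 kb of the start site it stood through 339 bp in left and 212 bp in right separate. With equal numbers of peaks it stood in right separate alone, and with the widest 50% of peaks or peaks over start sites it stood in neither. The *Cdkn1a* calls turned in sign between arms. *Cdkn2a* and *Cdkn2c* were listed in both conditions in all 3 arms.

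At the *Cdkn2a* and *Cdkn2b* locus (both genes with 10 kb on each side, 56569 bp), exercised and sedentary lists covered 51933 and 51729 bp in SIT, 52058 and 52317 bp in left separate, and 48245 and 51355 bp in right separate. The Jaccard index of the conditions was 0.996, 0.995 and 0.925 in the 3 arms, beside 0.478, 0.536 and 0.33 over all H3K27me3 bases of the genome. Among genes at least 50% covered in one condition, 12.3, 14.1 and 13.2% reached as much, so the locus lay in the upper range of widely marked genes rather than alone. Over all 15 pairs of the 6 lists, the index ran from 0.922 to 0.997 with a median of 0.976. At *Cdkn2c* it was 0.708, 0.936 and 0.635 between conditions. As much was reached by 23.7, 6.45 and 16.3% of all genes with H3K27me3 nearby, and by 58.2, 33.7 and 45.0% of widely marked genes. The *Cdkn2c* locus was itself less than 50% covered in the separate arms, at most 12473 bp in left and 11013 bp in right of 26314 bp.

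Over the loci of all 6 genes together, 160746 bp, H3K27me3 covered 70784 bp in exercised and 63613 bp in sedentary SIT, 70145 and 66917 bp in left separate, and 56586 and 66820 bp in right separate. Exercised minus sedentary was 55.0 ± 9126 bp (mean and SD over 3 arms), with p = 1.0 before and after Benjamini-Hochberg adjustment over both marks in an exact permutation test (two-sided, over all sign flips of the arms). H4K8ac covered 5206 and 2187 bp in SIT, 1679 and 4063 bp in left separate, and 1253 and 2080 bp in right separate. Exercised minus sedentary was -64.0 ± 2781 bp, with p = 1.0 by the same exact test. In raw bases the direction differed between arms for both marks. With 3 arms the smallest p this test can give is 0.25, so no difference could have passed 0.05.

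**Figure D4:**
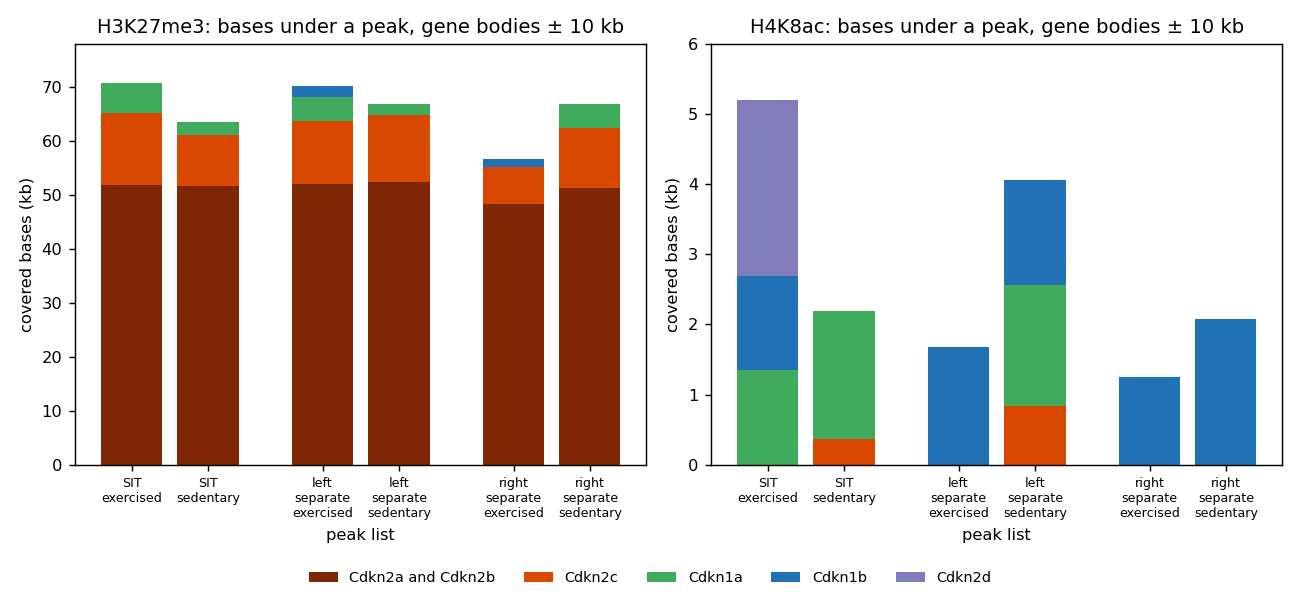
Stacked bars give the bases under a peak in kb, in the gene bodies with 10 kb on each side, for each list (exercised and sedentary beside each other in the 3 arms), with colours for the loci and each panel on its own scale. The *Cdkn2a* and *Cdkn2b* block of H3K27me3 stays at 48245 to 52317 bp in all lists. The other loci together carry most of the H3K27me3 differences between conditions, and peaks count whatever their assigned gene.

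Of 37 other genes of the cell cycle pathway, 5 had a start site under H3K27me3 in at least 3 of 6 lists and none in all 6, whereas 1158 of 21938 protein-coding genes, or 5.28%, did so in all 6, as *Cdkn2a* and *Cdkn2b* did. These 5 were the E2F factor *E2f8* (5 lists), the D-type cyclin *Ccnd1* (4), the mitotic kinase *Cdk1* (3), the G1 kinase *Cdk6* (3) and the CDK-associated phosphatase *Cdkn3* (3). The 5 are 13.5% of the 37 genes, beside 9.93% of all protein-coding genes. No start site under H3K27me3 was found in any list for 30 of the 37, or 81.1%, beside 85.9% of all protein-coding genes, so both shares lay near the background. None of the 5 had a start site under H4K8ac in any list, which was so for 59.5% of the 37 and 67.0% of all protein-coding genes. *Cdkn1c*, the third CIP/KIP gene, had H3K27me3 peaks in 5 of 6 lists, 13091 and 4813 bp in all in exercised and sedentary SIT, 10371 and 2244 bp in left separate, and 0 and 15131 bp in right separate, and no H4K8ac peak. *Cdkn1c* is imprinted, so 1 of its alleles is silent in most tissues. The order of exercised and sedentary again turned in right separate. Across the 37 genes, H3K27me3 was gained at 7 and lost at 0 in SIT, gained at 1 and lost at 1 in left separate, and gained at 0 and lost at 6 in right separate. H4K8ac was gained at 9 and lost at 3 in SIT, gained at 0 and lost at 14 in left separate, and gained at 1 and lost at 8 in right separate. In SIT and right separate the majority among them went the way of most changed genes, and for H4K8ac in left separate too.

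In the 6 kb around the outermost start site, the pattern of covered bases over the 12 lists was matched exactly for *Cdkn2a* by 180 other protein-coding genes, fully covered by H3K27me3 in 6 lists and free of H4K8ac. For *Cdkn2b* the closest were *Foxe3* (sum of absolute differences 3 bp), *4930447C04Rik* and *Six6* (5 bp each), of which *Foxe3* and *Six6* encode developmental transcription factors of the eye. For *Cdkn1b* they were *Cenpa*, *Cxcr1* and *Aggf1* (1720, 1777 and 1864 bp of a total of 8405 bp). For *Cdkn2c* they were *Rtn2*, *Ppp2r2b* and *Stat6* (786, 1106 and 1244 bp of 7324 bp). For *Cdkn1a* they were *R3hdm4*, *Lin37* and *Eif4b* (209 to 250 bp of 1299 bp), and for *Cdkn2d* *Tfb1m*, *Usp3* and *Ankrd10* (0 to 1 bp of 1515 bp), where both totals rest on 1 or 2 peaks.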

How the data were processed

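The 60 CUT&RUN-seq samples were grouped by antibody, condition and arm from the labels. Reads were aligned by the authors with Bowtie2 2.4.1, peaks were called with SEACR (stringent, 0.01), and ChIPseeker 1.8.6 gave each peak 1 gene on mm10, with promoters reaching 3 kb. Per the methods, exercised H4K8ac libraries of SIT and of the separate isolations were left out for a high false discovery rate, and animals of both conditions were left out on their RNA data. For the SIT peak calls the study gives fewer mice in either condition than the labels have samples. How libraries were combined is not given in the sources used here. The deposited tables hold, per the file headers, positions, widths in bp and distances to a start site, with no counts, signal or p-values. The study states a minimum read depth for its libraries, but the depth behind each list is unknown. The 20 IgG samples were not analysed here. The 8 transcripts assigned to peaks of these genes had the same positions in GENCODE M21.

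Members and lists were chosen with earlier results of these data known. All 6 members were named, pathway genes by start sites under H3K27me3 in at least 3 of 6 lists, similar genes as the 3 nearest in the 6 kb around the outermost start site and over 100 kb away, and neighbours by a peak within 10 kb. Covered bases were compared over 3 arms by an exact sign-flip permutation test. Alternatives were promoter peaks, no distal peaks, start sites, 3 kb windows, the widest 50%, equal list lengths, other flanks, scaling, 50% reciprocal overlap and each arm left out. Interval functions, tested on simulated data, matched base-by-base counts in 20 of 20 sets. Python 3.11.15, numpy 2.4.6, pandas 2.3.3 and matplotlib 3.10.9 were used.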

Additional observations from a re-analysis of the deposited data

Results flagged for a closer look

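H3K27me3 peaks of *Cdkn1a*, exercised minus sedentary, numbered 2 in SIT, 1 in left separate and -1 in right separate. The arms moved opposite ways, with 1 list on each side, and the difference between arms was not tested.

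H3K27me3-covered bases of the 6 loci, exercised minus sedentary, were 7171 bp in SIT, 3228 bp in left separate and -10234 bp in right separate, and H4K8ac-covered bases were 3019, -2384 and -827 bp. These directions also differed between arms without a test of the difference. The direction was that of the longer list in every arm and mark. At equal numbers of peaks the mean over arms was 955.3 bp for H4K8ac and -1406.7 bp for H3K27me3. Scaled to the bases a list covered, it was 11.8 and 94.7 bp per Mb. The part of list length in the directions was not tested further.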

How the results depend on the processing

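Between single samples, no paired analysis was possible because the lists pool the samples of a group and carry no replicate number, so exercised and sedentary lists were paired by arm. The counts rest on few genes, so small shifts move them. H3K27me3 had 5 gains and 1 loss, against 3 and 0 with promoter peaks alone or without distal intergenic peaks, and 1 gain with any peak over a start site. There were 3 gains with any peak within 3 kb of the outermost start site, 1 gain and 0 losses in the widest 50% of each list, and 2 gains and 0 losses at equal numbers of peaks. H4K8ac had 9 listed pairs, 2 gains and 1 loss, against 5 pairs and 2 losses over start sites, 4 pairs, 0 gains and 4 losses in the widest 50%, and 0 losses at equal numbers. Leaving out SIT gave 0 H4K8ac gains, leaving out left separate 0 H4K8ac losses and leaving out right separate 0 H3K27me3 losses.

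Exercised minus sedentary covered bases of H4K8ac, -64.0 bp, turned to 955.3 bp at equal numbers of peaks, 11.8 bp per Mb covered when scaled, 1096 bp without left separate and 317.5 bp without right separate. Those of H3K27me3, 55.0 bp, turned to -591 bp over gene bodies, -5095.7 bp with 50 kb on each side, -2450.3 bp in the widest 50%, -1406.7 bp at equal numbers, -3503 bp without SIT and -1531.5 bp without left separate. Other values kept their sign but moved far: H4K8ac to -2551 bp with 50 kb on each side, -2377 bp in the widest 50%, -1605.5 bp without SIT and -591.7 bp over gene bodies, and H3K27me3 to 5199.5 bp without right separate. The spread over the 3 arms was 2781.1 and 9126 bp (SD), so neither mean has a settled size or direction. The cause was not tested, and no p of the exact sign-flip test was below 0.25. For H4K8ac this p was 0.25 when scaled and in the widest 50%, where all 3 arms went 1 way. That way was up in exercised when scaled and down in the widest 50%. Of the 9 overlapping exercised and sedentary peaks at a gene, 7 remained at 50% reciprocal overlap. The other two were H4K8ac at *Cdkn1a* in SIT and H3K27me3 at *Cdkn2a* in right separate. Counts were compared as shares of the pairs counted, which are fewer when an arm is left out. In all, 42 of 71 alternative values kept their direction, or for such shares stayed within 1.5 times, 19 moved and 10 reversed. The depth behind the lists is unknown, and an absent peak is no measured zero.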
